A study of Bos taurus with 48 samples.

Results

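The expression of 9 genes of antigen presentation was followed in the endometrium of 22 cows on day 17 of the reproductive cycle. The genes were B2M, TAP1, TAP2, TAPBP and HLA-G of the class I route and HLA-DMB, HLA-DRA, HLA-DOA and CD74 of the class II route. They were chosen by name, and each had 1 probe, so that 9 of the 21475 probes of the array were members. A probe belonged to a member when the gene name, the bracketed symbol of the array description or the symbol in the study's list of changed probes was that of the gene. Of the cows, 12 were pregnant after embryo transfer on day 7 and 10 were cyclic, and caruncular (C) and intercaruncular (IC) tissue of every cow was measured. Caruncles are the aglandular sites of placental attachment in ruminants, and the glandular tissue between them is intercaruncular. Among the pregnant cows, 7 had an embryo labelled large and 5 one labelled small, and 6 were labelled fertile and 6 sub-fertile. The labels used here do not say how fertility was judged. All were lactating Holstein Friesian dairy cows with synchronised estrous cycles, and the cyclic cows received no embryo. No age is given, cows are called by state and number as in the labels (such as Pregnant_932), and each value comes from the whole tissue of 1 cow.

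Class I molecules pair a heavy chain with beta-2 microglobulin (B2M) and show peptides from inside the cell to CD8 T cells. Proteasomes cut these peptides, the transporter made of TAP1 and TAP2 moves them into the endoplasmic reticulum, and tapasin (TAPBP) holds the empty class I molecule beside the transporter. Class II molecules such as that of HLA-DRA show peptides from endosomes to CD4 T cells. Their groove is held by the invariant chain (CD74) until HLA-DM, of which HLA-DMB is the beta chain, exchanges it for a peptide, and HLA-DO, of which HLA-DOA is the alpha chain, restrains HLA-DM. Interferons raise class I genes and the immunoproteasome in many cells, and the ruminant conceptus secretes interferon tau at this stage. Class II molecules are best known on dendritic cells, macrophages and B cells.

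Of the 9 probes, 3 (HLA-G, HLA-DMB and HLA-DRA) carried the human symbol only in the study's list, which holds probes that differed between pregnant and cyclic cows in these samples. Another 4 members stood on that list and also carried the symbol in the array description, and TAPBP and CD74 stood outside the part of it held here. For the 7 listed members a pregnancy difference is therefore not independent evidence, and neither is a count of them set against all probes. RefSeq names the transcripts of the probes BOLA-DMB, BOLA-DRA and BOLA-DOA, and that of the HLA-G probe BOLA, a bovine class I heavy chain. In the RefSeq table (ARS-UCD2.0), 7 of the 9 genes lie on 1 chromosome, and TAP2, TAP1, HLA-DMB and HLA-DOA follow one another with 2 protein-coding genes between each pair of neighbours. The files name no genome build, so positions are not given.

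The probes are 60 bases long. Stretches of 30 bases are shown for the members with the largest pregnancy differences and for the class I heavy chain, whose identity rests on its probe. They read 5′ to 3′ as the study's list has them, and capitals mark the polyadenylation signal AATAAA where the probe holds one.
B2M: tgacttctcaatgtcagtgggatccagaac
TAP1: cttgatatttatAATAAAattggtgttttg
HLA-G: tgggccgtctccatcgctgtctttgcttca
HLA-DMB: ttgtctctgaggAATAAActggtagaatcc
The motifs AATAAA or ATTAAA, sought on the listed strand, were present in TAP1 and HLA-DMB among the 7 members with a listed sequence, and in 17.9% of the 1689 listed probes held. A match is a description of the letters only.

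Values are log2 ratios of the sample (Cy5) to a pool of all 44 samples (Cy3), so 0 is the level of the pool and positive values lie above it. They are relative to the median probe of the array, and levels of different probes cannot be set against each other. All 9 member probes were well above background in 44 of 44 samples. The sample channel of B2M was saturated on at least 1 spot in 2 caruncular samples of cyclic cows, that of HLA-G in 1 and that of HLA-DRA in 1. Between 68.8% and 84.0% of the spots of an array passed that criterion, with medians from 71.5% to 72.6% in 3 of the 4 tissue and state groups and 69.98% in intercaruncular tissue of cyclic cows. The slides hold 4 arrays each, and most hold 1 tissue and 1 state, so that slide and state are largely confounded. Of the 3 scan dates, 1 held intercaruncular arrays alone and 1 caruncular arrays alone. The third held the repeat arrays and both tissues of cow Pregnant_9790 and cow Non-Pregnant_9786. Where a sample was hybridised again, the member values of the pair differed by a median of 0.12 and at most 0.34 log2 over 34 pairs of values.

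All 9 members were higher in pregnant than in cyclic caruncular tissue at an adjusted p under 0.05 (limma, Benjamini-Hochberg over 14695 probes), against 11.4% of all probes tested. With a change of at least 1.5-fold as a second bound, 6 of 9 rose, against a background of 5.77%, 3 of 5 class I genes and 3 of 4 class II genes. The median difference was 0.63 log2 for class I, 0.78 for class II and -0.04 for all probes. In intercaruncular tissue 5 of 9 were higher at an adjusted p under 0.05 (background 9.24%), and 4 rose under both bounds (background 3.99%), B2M, TAP1, HLA-DMB and HLA-DRA. None fell in either tissue. Every member that rose under both bounds was on the study's list of changed probes, so these counts are not independent of these samples. Beside these counts, markers of several other cell types moved with state, as given below.

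TAP1, the subunit of the peptide transporter with the largest difference of the 9 members, had values from -1.64 to -0.69 (median -1.33) in caruncular tissue of the 10 cyclic cows and from -0.59 to 1.45 (median 0.75) in the 12 pregnant cows. The groups did not overlap, as was true of 1.59% of all probes in this direction. The difference was 1.76 ± 0.22 log2 (SE), 3.38-fold, with an adjusted p of 3.55e-06 by limma. In intercaruncular tissue TAP1 ran from -1.65 to -0.23 (median -0.62) in cyclic cows and from -0.39 to 1.43 (median 0.74) in pregnant cows. There 11 of 12 pregnant cows lay above every cyclic cow, and the difference was 1.27 ± 0.21 log2 (adjusted p 1.86e-04 by limma).

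B2M, the light chain shared by all class I molecules, ran from -0.54 to 0.15 (median -0.30) in caruncular tissue of cyclic cows and from 0.04 to 2.08 (median 1.08) in pregnant cows. In pregnancy 11 of 12 cows exceeded every cyclic cow, and cow Pregnant_3807 was the exception. The spread was also wider, with an SD of 0.66 in pregnant and 0.23 in cyclic cows. B2M was higher by 1.37 ± 0.21 log2, 2.59-fold (adjusted p 5.57e-05 by limma). In intercaruncular tissue the median was -0.35 in cyclic and 0.59 in pregnant cows, and the difference was 0.89 ± 0.15 log2 (adjusted p 3.90e-04 by limma).

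TAP2, the partner of TAP1 in the transporter, differed by less. Its caruncular median was -0.45 in cyclic cows and 0.12 in pregnant cows, and 10 of 12 pregnant cows lay above every cyclic cow. The difference of 0.58 ± 0.10 log2 (adjusted p 2.75e-04 by limma) lay just under the bound of 0.585 log2. In intercaruncular tissue it was 0.37 ± 0.09 log2 (adjusted p 0.00462). Tapasin (TAPBP) lay equally close to the bound in caruncular tissue, with 0.58 ± 0.12 log2 (adjusted p 9.66e-04 by limma), and differed by 0.33 ± 0.16 log2 in intercaruncular tissue (adjusted p 0.138). Both passed the bound in caruncular tissue with normexp background correction, at 0.61 for TAP2 and 0.60 for TAPBP, and with the deposited matrix, at 0.59 for each.

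The HLA-G probe, a class I heavy chain, had a median of 0.21 in caruncular tissue of cyclic cows and 0.92 in pregnant cows. Its groups overlapped, since cow Pregnant_9790 was at -0.31 and 8 of 12 pregnant cows exceeded every cyclic cow. It rose by 0.63 ± 0.19 log2 (adjusted p 0.0176 by limma), and the call was lost with the slide as a random block (0.56, adjusted p 0.0878). In intercaruncular tissue the difference was 0.52 ± 0.20 log2 (adjusted p 0.0611 by limma). It passed without cows Pregnant_9790 and Non-Pregnant_9786, both scanned on the third date (0.69, adjusted p 0.00619).

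HLA-DMB, the chain of the class II peptide exchanger, was the other member without overlap in caruncular tissue. Cyclic cows ran from -1.02 to -0.59 (median -0.82) and pregnant cows from -0.17 to 0.97 (median 0.58). It rose by 1.24 ± 0.13 log2, 2.37-fold, with the smallest adjusted p of the 9 members (3.04e-07 by limma). In intercaruncular tissue cyclic cows ran from -1.08 to -0.28 and pregnant cows from -0.38 to 1.27. Cow Pregnant_9790 at -0.38 was the one pregnant cow that did not exceed every cyclic cow, and the difference was 1.01 ± 0.19 log2 (adjusted p 6.29e-04 by limma). Over all probes, 0.940% had every pregnant cow above every cyclic cow in intercaruncular tissue, and no member did.

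HLA-DRA, the alpha chain of the main class II peptide receptor, ran from -0.63 to 0.26 (median -0.16) in cyclic and from 0.08 to 1.05 (median 0.67) in pregnant caruncular tissue. It rose by 0.86 ± 0.13 log2 there (adjusted p 5.31e-05 by limma) and by 0.73 ± 0.15 log2 in intercaruncular tissue (adjusted p 0.00200). HLA-DOA, of the inhibitor of HLA-DM, rose by 0.70 ± 0.15 log2 in caruncular tissue (adjusted p 0.00167 by limma). Its intercaruncular difference was 0.38 ± 0.16 log2 (adjusted p 0.0970), and 5 of 12 pregnant cows lay above every cyclic cow. CD74, the invariant chain, was the member with the smallest difference in both tissues, 0.37 ± 0.09 log2 in caruncular tissue (adjusted p 0.00358 by limma) and 0.05 ± 0.14 log2 in intercaruncular tissue (adjusted p 0.825). In intercaruncular tissue its groups lay on top of one another, with 6 of 12 pregnant cows above the mean of the cyclic cows.

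**Figure D1:**
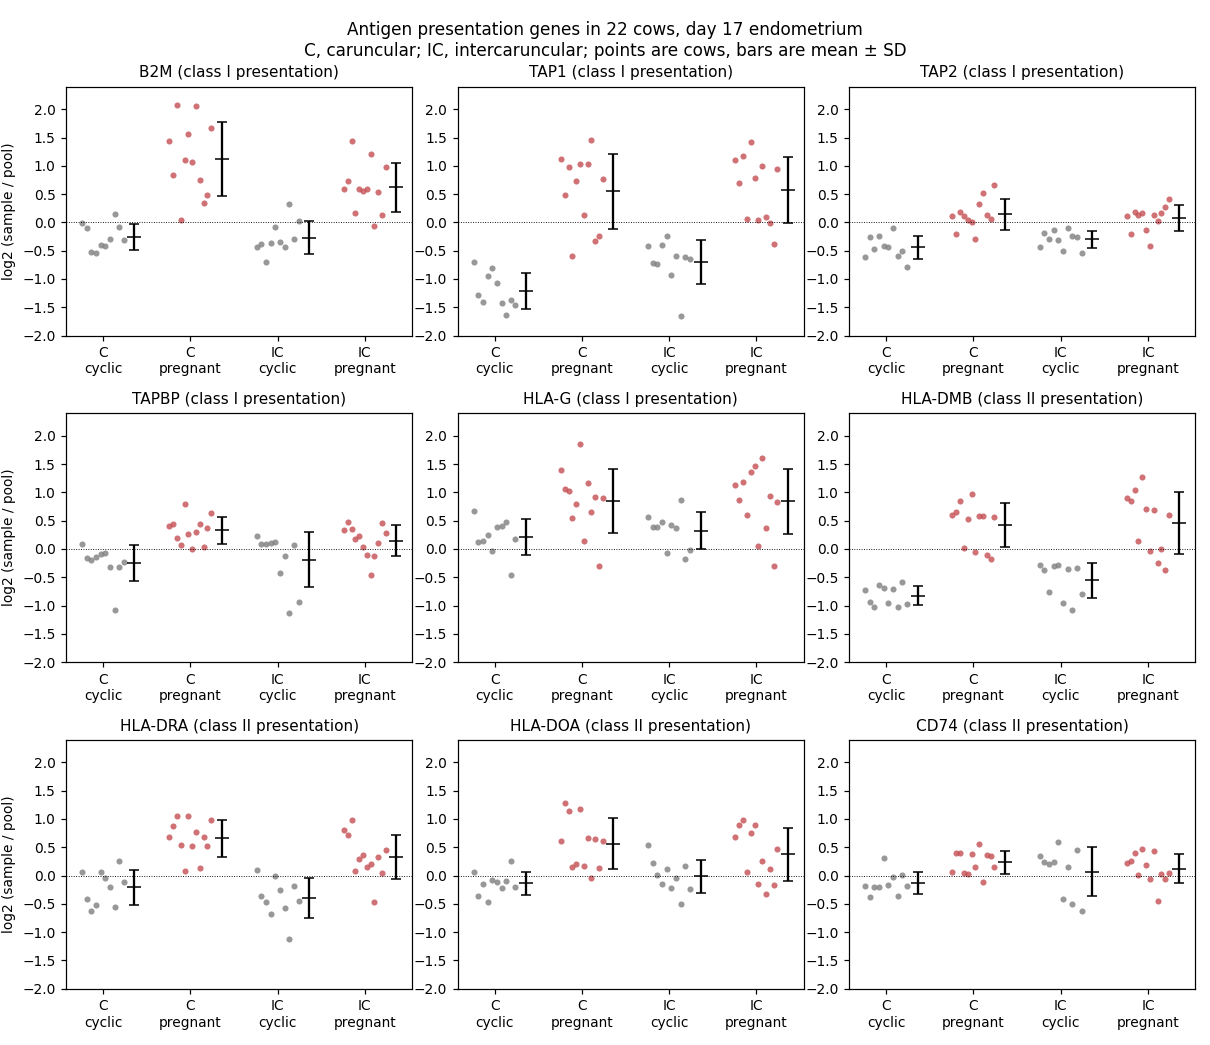
Log2 ratio of sample to pool (y axis) of each of the 9 members in caruncular (C) and intercaruncular (IC) tissue of cyclic (grey) and pregnant (red) cows. Each point is 1 cow, and the bar gives the mean ± SD (n = 10 cyclic and 12 pregnant). TAP1 and HLA-DMB in caruncular tissue are the panels whose groups do not overlap, and CD74 in intercaruncular tissue shows no separation.

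**Figure D2:**
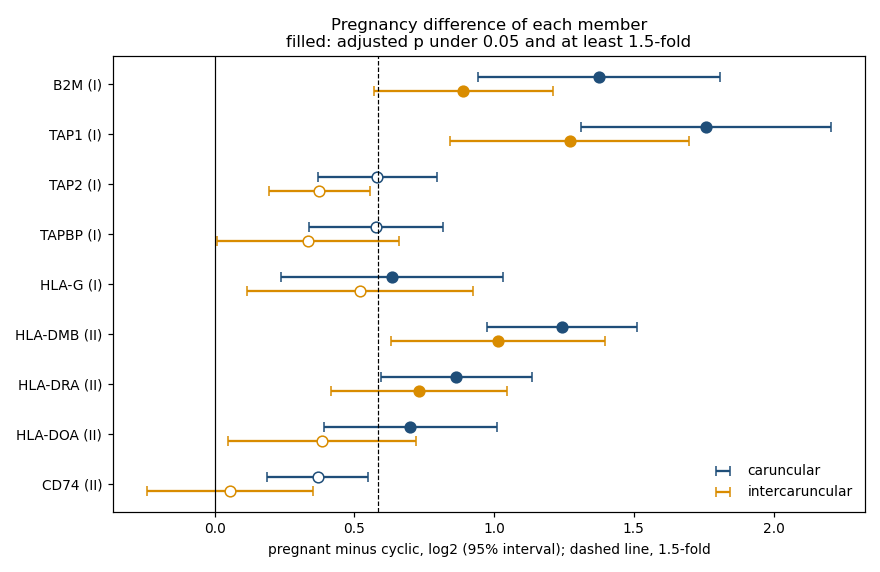
Pregnant minus cyclic difference on the log2 scale (x axis) of each member (y axis, with its class) and its 95% interval from limma, in caruncular (blue) and intercaruncular (orange) tissue. Filled points passed an adjusted p of 0.05 and 1.5-fold, 6 in caruncular and 4 in intercaruncular tissue, and the dashed line marks 1.5-fold.

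Because most slides hold 1 state, the pregnancy difference was also taken within slides. With the slide as a fixed block 0 of 9 members passed in either tissue, since the fit then rests on 1 slide per tissue with 3 pregnant cows and 1 cyclic cow. On those slides all 9 members were higher in pregnancy, and each of the 3 pregnant cows lay above the cyclic cow for each member. The share of all probes with this pattern was not counted. These cows are part of the pregnancy comparison, so the study's list bears on these counts too. For TAP1 and HLA-DMB in caruncular tissue the pattern followed from the lack of overlap between all pregnant and all cyclic cows. Both slides hold the same cows, Pregnant_3803, Pregnant_3807, Pregnant_9921 and Non-Pregnant_3972. The tissues are therefore not separate comparisons, and both rest on 1 cyclic cow. In caruncular tissue the differences on that slide were 1.3 log2 for TAP1 (adjusted p 0.441 in the blocked limma fit), 1.27 for B2M (adjusted p 0.455), 1.37 for HLA-DMB (adjusted p 0.0818) and 0.84 for HLA-DRA (adjusted p 0.477). In intercaruncular tissue they were 1.5 log2 for TAP1 (adjusted p 0.0901 in the blocked limma fit), 0.97 for B2M (adjusted p 0.373), 1.49 for HLA-DMB (adjusted p 0.0870) and 0.67 for HLA-DRA (adjusted p 0.575). A further slide with repeat arrays held 2 caruncular arrays of pregnant cows and 1 of a cyclic cow. There the mean of all 9 members was also higher in pregnancy, by 2.00 log2 for TAP1 and 0.24 for HLA-G. For HLA-G, 1 of the 2 pregnant arrays lay above the cyclic array.

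Of 14 other genes of the class I route that were tested, 4 rose in caruncular tissue (background 5.77%), none fell and 10 did not pass. The median difference was 0.32 log2. Those that rose were PSMB9 (1.14 ± 0.13 log2, adjusted p 1.65e-06 by limma), PSMB8 (0.93 ± 0.10), PSME2 (0.83 ± 0.10) and PSME1 (0.66 ± 0.10). PSMB8 and PSMB9 are subunits of the immunoproteasome, and PSME1 and PSME2 make up its activator. In intercaruncular tissue 3 of 14 rose (background 3.99%), PSMB9 (0.92), PSMB8 (0.73) and PSME2 (0.72). FCGRT, an Fc receptor built like a class I heavy chain and paired with B2M, was the one gene of this list with opposite signs in the 2 tissues. It differed by -0.14 in caruncular and 0.04 in intercaruncular tissue, and neither passed.

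Of 23 tested genes of the class II route, 4 rose in caruncular tissue (background 5.77%), none fell and 19 did not pass. The median difference was 0.48 log2. Cathepsin S (CTSS), a protease that trims the invariant chain, rose by 0.88 ± 0.10 log2 (adjusted p 1.06e-06 by limma), and cathepsin B (CTSB) by 0.79 ± 0.13. The others were CREB1 (0.71 ± 0.15) and RFX5 (0.61 ± 0.11), factors that bind class II promoters. CIITA, the coactivator on which class II genes depend and which was singled out after its values were seen, was higher by 0.58 ± 0.13 log2 (adjusted p 0.00239 by limma), short of the fold bound. In intercaruncular tissue CTSS alone rose (0.76, adjusted p 7.51e-05 by limma), and the median difference was 0.26. This 1 of 23 is near the background of 3.99%. NFYB was the one gene of this list with opposite signs in the 2 tissues, at -0.10 in caruncular and 0.03 in intercaruncular tissue, and neither passed.

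Among 10 tested partners of MHC molecules on T and NK cells and of antigen presentation to them, 3 rose and 0 fell in caruncular tissue (background of rises 5.77%). LAG3, a class II receptor of activated lymphocytes, rose by 1.32 ± 0.18 log2 (adjusted p 1.90e-05 by limma), CD40 by 1.00 ± 0.18 and CD86, a costimulator on presenting cells, by 0.98 ± 0.10. In intercaruncular tissue LAG3 (0.91) and CD40 (0.68) rose (background 3.99%). CD8B, a chain of the co-receptor for class I, and CD3E, of the T cell receptor complex, had opposite signs in the 2 tissues. CD8B differed by -0.08 in caruncular and 0.09 in intercaruncular tissue, and CD3E by 0.07 and -0.22, and neither passed.

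In whole tissue, fewer cells of a type and less RNA per cell cannot be told apart, so the levels of marker genes are given beside the class II results. Of all probes tested, 5.77% rose in caruncular and 3.99% in intercaruncular tissue. Of 7 macrophage and monocyte markers tested, 4 rose in caruncular tissue (MSR1, AIF1, CSF1R and MRC1) and 3 in intercaruncular tissue. The mean log2 level of that list ran from -1.14 to -0.06 over caruncular samples of cyclic cows and from -0.42 to 0.75 over those of pregnant cows, and from -1.06 to -0.05 and -0.57 to 0.60 in intercaruncular tissue. Of 5 dendritic cell markers 2 rose in each tissue, CCR7 and CLEC9A, and the list ran from -0.92 to -0.10 in cyclic and -0.05 to 0.98 in pregnant caruncular tissue. Of 3 B cell markers tested none passed in either tissue, and the list ran from -0.13 to 0.69 in cyclic and -0.43 to 0.58 in pregnant caruncular tissue, while MS4A1, CD79B and PAX5 lay below the signal filter. Of 5 markers of all leukocytes, CD53 rose in both tissues (1.71 and 1.24 log2), and the list ran from -0.70 to 0.08 in cyclic and 0.10 to 0.80 in pregnant caruncular tissue. NK cell markers rose in 4 of 5 cases in caruncular and 2 of 5 in intercaruncular tissue, and T cell markers in 0 of 4 in both. With no bound on the fold, the markers higher at an adjusted p under 0.05 by limma were, in caruncular and intercaruncular tissue, 5 and 2 of the 5 leukocyte markers (median differences 0.49 and 0.31 log2), 4 and 4 of the 7 macrophage and monocyte markers and 3 and 2 of the 5 dendritic cell markers. By the same measure they were 4 and 4 of the 5 NK cell markers, 1 and 0 of the 4 T cell markers and 0 and 0 of the 3 B cell markers. The list levels in caruncular tissue ran from -0.91 to 0.00 and -0.03 to 0.71 for NK cells and from -0.46 to 0.63 and -0.33 to 0.91 for T cells, cyclic before pregnant. Lower in pregnancy were 4 of 5 smooth muscle markers in each tissue, 2 of 6 endothelial markers in each tissue and, of 7 stromal markers, 1 in caruncular and 3 in intercaruncular tissue, while PDGFRA rose in caruncular tissue. In caruncular tissue of cyclic and pregnant cows in turn, the smooth muscle list ran from -0.39 to 1.16 and -1.56 to 0.41, the endothelial list from -0.41 to 0.67 and -0.67 to 0.47, and the stromal list from 0.31 to 1.71 and -0.10 to 1.29. All 7 epithelial markers with a probe, which define the lining and glands of endometrium, passed the signal filter. Of these, 2 rose (CDH1 and CLDN4) and 2 fell (KRT18 and KRT19) in caruncular tissue, and the list ran from -1.26 to 0.16 and -1.36 to 0.19. Of 11 trophoblast markers with a probe, PAG1 alone passed the filter, and it did not differ at the threshold (0.16, adjusted p 0.528 by limma). The part of any of these cell types in the differences of the members was not tested.

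The effect of pregnancy was larger in caruncular than in intercaruncular tissue for all 9 members, but 0 of 9 passed as an interaction of state and tissue in a limma fit of the 44 samples (3 of all probes did, 0.0204%). In that fit, which takes no account of the pairing of tissues by cow, no member had an unadjusted p under 0.05. The largest excesses were 0.49 ± 0.27 log2 for B2M and 0.49 ± 0.31 for TAP1, with adjusted p of 0.754 and 0.828, and the 95% interval for TAP1 ran from -0.13 to 1.10. In a fit with a fixed replicate block for each cow, which removes the differences between cows, 150 probes passed and still 0 members. The adjusted p by limma in this blocked fit were 0.0804 for B2M, 0.149 for TAP1 and up to 0.641 (HLA-G). The SE was smaller with the block for every member, with 0.14 log2 for B2M and 0.18 for TAP1. Unadjusted p of the blocked fit are not given here.

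In the comparison of the tissues within a state, 0 of 9 members passed in cyclic cows, where 36.0% of all probes did (limma, 44 samples). B2M was at the same mean in both tissues, -0.26 in caruncular and -0.27 in intercaruncular. TAP1 was lower in caruncular tissue by 0.52 ± 0.23 log2 (adjusted p 0.0676), in 9 of 10 cyclic cows, and it passed without cow Non-Pregnant_9786 and cow Pregnant_9790 (-0.58, adjusted p 0.0268). In the fit with a fixed replicate block for each cow, TAP1 (adjusted p 0.00206), TAP2 (-0.14, adjusted p 0.0366) and HLA-DMB (-0.27, adjusted p 0.0183) were lower in caruncular tissue, and 55.4% of all probes passed. With cow as a random replicate block TAP2 did not pass (adjusted p 0.0671). In pregnant cows B2M was higher in caruncular tissue by 0.50 ± 0.18 log2 (adjusted p 0.0203 by limma) and HLA-DRA by 0.33 ± 0.14 (adjusted p 0.0491), in 10 of 12 cows each, where 46.5% of all probes passed. HLA-DRA lost its call without cows Pregnant_9790 and Non-Pregnant_9786 (adjusted p 0.0551), with normexp (0.0533), with no filter (0.0593), with the deposited matrix (0.0548), with the first array alone (0.0564) and with the scan date as a block (0.591), where B2M lost its call too (0.919). The fit with a fixed replicate block for each cow added HLA-DOA (0.19, adjusted p 0.0468) and called 62.6% of all probes, and with cow as a random replicate block HLA-DOA did not pass (adjusted p 0.0988). B2M differed between the tissues of a cow by a median of 0.58 log2 in pregnant cows, from -0.19 to 1.00, and by a median of 0.03 in cyclic cows, from -0.33 to 0.43.

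The tissues were scanned on different dates apart from cows Pregnant_9790 and Non-Pregnant_9786, and with the scan date as a fixed block, chosen after the data were seen, 0 members passed in either state. That fit called 3 probes in cyclic and 6 in pregnant cows, and it rests on these cows. On 1 slide, cow Pregnant_9790 had B2M higher in caruncular tissue by 0.35 log2 and HLA-DRA by 0.49. On another, cow Non-Pregnant_9786 had differences of -0.17 for B2M, 0.56 for HLA-DRA and 0.01 for TAP1. For the rest of the cows tissue and scan date cannot be told apart.

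In order of mean level, 7 of the 9 members had caruncular tissue of pregnant cows first and intercaruncular tissue of pregnant cows second, and for TAP1 and HLA-DMB these places were exchanged. The lower places went to the cyclic tissues for every member. The means of the second and the third place were 0.55 and -0.69 for TAP1, 0.62 and -0.26 for B2M, 0.42 and -0.55 for HLA-DMB and 0.12 and 0.07 for CD74. Neighbours in this order that are tissues of 1 state did not differ at the threshold without the block, apart from B2M and HLA-DRA in pregnant cows.

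All 9 members had a higher mean in cows with a large embryo than in cows with a small one, in both tissues, and 0 passed at an adjusted p under 0.05 in either. Of all 14695 probes, 7898 in caruncular and 7094 in intercaruncular tissue had a higher mean with a large embryo. The members were measured in the same cows and some varied together, so their signs are not separate observations. In caruncular tissue limma called 0% of all probes, and 4 members had an unadjusted p under 0.05 (B2M, HLA-DRA, HLA-DOA and CD74), as had 1017 of the 14695 probes. In intercaruncular tissue it called 3.68% of all probes, and 1 member (HLA-DRA) had an unadjusted p under 0.05, as had 3169 of the 14695 probes, a larger share than 1 of 9. The median difference over the 9 members was 0.41 log2 in each tissue, against 0.01 in caruncular and -0.01 in intercaruncular tissue over all probes tested. The sign held for every member without cow Pregnant_9790 and was turned for TAP2 without cow Pregnant_9246 (-0.04 in caruncular, -0.01 in intercaruncular tissue) and, in caruncular tissue, without cow Pregnant_9921 (-0.02).

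B2M in caruncular tissue was 0.75, 0.34, 0.04, 1.10 and 1.07 in the small-embryo cows Pregnant_932, Pregnant_977, Pregnant_3807, Pregnant_3956 and Pregnant_9246. In the 7 large-embryo cows it ran from 0.48 to 2.08 (median 1.56), and 5 of them lay above every small-embryo cow. The difference was 0.79 ± 0.29 log2 with a 95% interval from 0.16 to 1.42 (adjusted p 0.666 by limma). HLA-DRA showed 0.13, 0.67, 0.53, 0.08 and 0.52 in the same small-embryo cows and 0.53 to 1.05 (median 0.88) in the large-embryo cows, of which 6 of 7 exceeded every small-embryo cow. Its difference was 0.46 ± 0.13 log2 (adjusted p 0.613 by limma).

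TAP1 and HLA-DMB varied within the size classes. In caruncular tissue TAP1 was 1.45, -0.33, -0.59, 0.73 and 0.13 in small-embryo cows Pregnant_932, Pregnant_977, Pregnant_3807, Pregnant_3956 and Pregnant_9246, and in intercaruncular tissue it was 0.10, -0.01, 0.06, 1.43 and 0.05. Small-embryo cow Pregnant_932 thus had the highest caruncular and small-embryo cow Pregnant_3956 the highest intercaruncular value of all pregnant cows. Among the large-embryo cows, cow Pregnant_9790 was lowest in both tissues, at -0.25 and -0.39, while the others ran from 0.49 to 1.12 and from 0.70 to 1.17. HLA-DMB had the same cow lowest in both tissues (-0.17 and -0.38). The difference for TAP1 was 0.46 ± 0.34 log2 in caruncular (95% interval -0.28 to 1.20) and 0.43 ± 0.30 in intercaruncular tissue (95% interval -0.22 to 1.09).

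Against the 10 cyclic cows, the 5 small-embryo cows had 4 of 9 members higher in caruncular tissue (background 3.33%) and 1 in intercaruncular tissue (background 1.14%). With random slide effects these became 2 and 0, as B2M (adjusted p 0.0964) and HLA-DRA (0.0779) lost their calls in caruncular tissue and TAP1 (0.0925) in intercaruncular tissue, where TAP1 also lost its call with no filter (0.0508). The cyclic and the small-embryo cows are both part of the pregnancy comparison, so the study's list bears on these counts too. In caruncular tissue TAP1 (1.49 ± 0.27 log2, adjusted p 0.00121 by limma) and HLA-DMB (1.02 ± 0.15, adjusted p 1.40e-04) had no overlap with the cyclic cows. This lack of overlap followed from that of the whole pregnant group, and the share of all probes with it was not counted here. B2M (0.92 ± 0.22, adjusted p 0.0157) and HLA-DRA (0.60 ± 0.14, adjusted p 0.0150) overlapped them. Leaving out 1 small-embryo cow ended the call of HLA-DRA without cow Pregnant_977, Pregnant_3807 or Pregnant_9246 (0.52 to 0.56 log2, under the fold bound), as did the first array alone (0.56), and that of B2M without cow Pregnant_932 (adjusted p 0.0510) or Pregnant_3956 (adjusted p 0.0768), while TAP2 passed without cow Pregnant_9246 (0.65). In intercaruncular tissue TAP1 rose by 1.02 ± 0.26 log2 (adjusted p 0.0341 by limma), and the call was lost without cow Pregnant_932 (adjusted p 0.0569), Pregnant_3956 (0.74 log2, adjusted p 0.184) or Pregnant_9246 (adjusted p 0.0517).

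**Figure D3:**
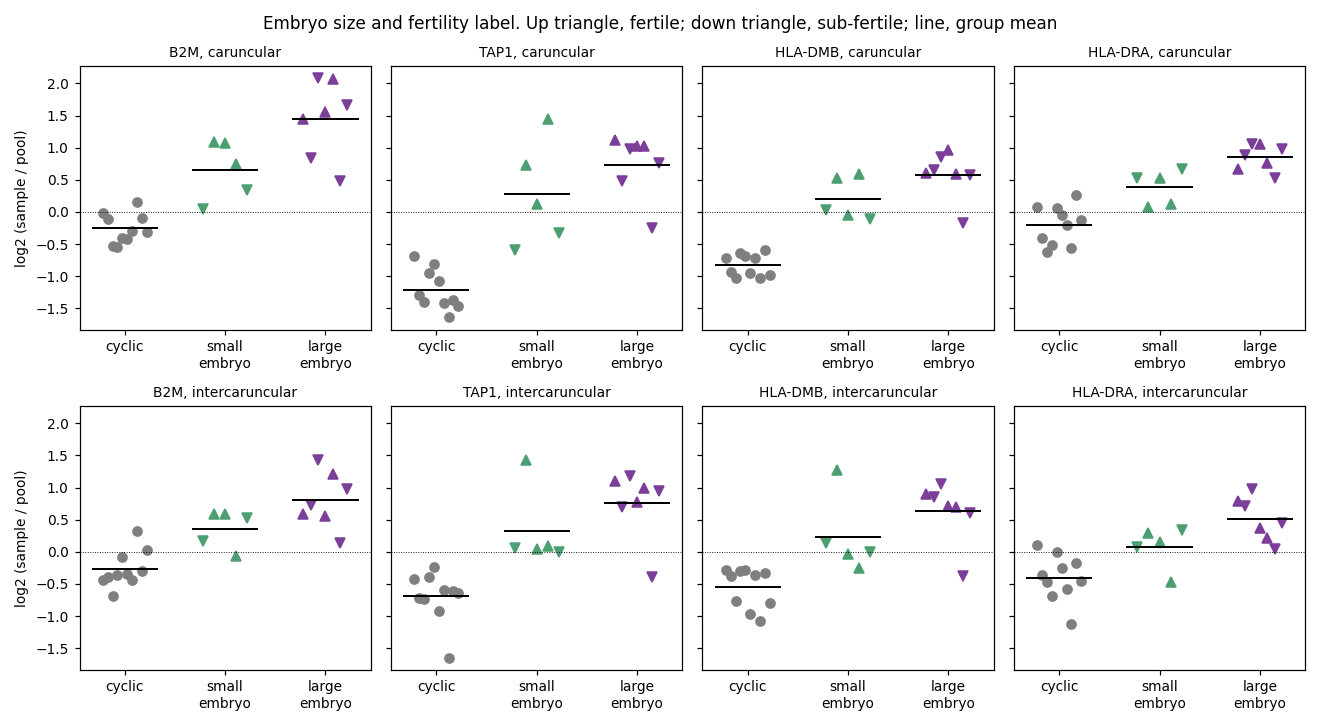
Log2 ratio of sample to pool (y axis) of B2M, TAP1, HLA-DMB and HLA-DRA in cyclic cows (grey) and in pregnant cows with a small (green) or large (purple) embryo, caruncular tissue above and intercaruncular tissue below. Triangles point up for fertile and down for sub-fertile cows, and the lines are group means (n = 10, 5 and 7). All 8 panels have the means in the order cyclic, small, large, and no large against small difference passed the test.

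Fertile and sub-fertile pregnant cows did not differ at the threshold for any member. In caruncular tissue limma called 0% of all probes and in intercaruncular tissue 0.0476%. The class I genes TAP1, B2M, HLA-G and TAPBP had higher means in fertile cows in caruncular tissue, and TAP2 had a lower one. The class II genes HLA-DRA, HLA-DOA and CD74 had lower means in fertile cows and HLA-DMB a higher one. The largest difference was that of TAP1, 0.74 ± 0.29 log2 (adjusted p 0.319 by limma, unadjusted p under 0.05), with fertile cows from 0.13 to 1.45 (median 1.03) and sub-fertile cows from -0.59 to 0.98 (median 0.12). In intercaruncular tissue TAP1 differed by 0.33 ± 0.31 log2 (adjusted p 0.655), and the one member with an unadjusted p under 0.05 was TAPBP, lower in fertile cows (-0.32 ± 0.13, adjusted p 0.317). Over all 14695 probes, 2025 in caruncular and 2000 in intercaruncular tissue had an unadjusted p under 0.05, a larger share than the 1 of 9 members in each. With the slide as a fixed block 3 members in caruncular tissue and 4 in intercaruncular tissue changed sign. That fit rests on fertile cows Pregnant_932 and Pregnant_9246 and sub-fertile cows Pregnant_3805 and Pregnant_977, which share a slide in each tissue. Apart from a repeat array, the other slides held pregnant cows of 1 fertility label, so that fertility and slide are largely confounded. Of the fertile cows 3 had a small embryo, and of the sub-fertile cows 2.

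Deviations of the 44 samples from the mean of their tissue and state show how the members vary from cow to cow. The samples share a cow in pairs, and the correlations are descriptions over these 44 values. Class II members varied together, with Pearson r from 0.56 to 0.79 over 6 pairs (median 0.62). Class I members did so less, with r from -0.16 to 0.51 over 10 pairs (median 0.25). Across the classes r ran from -0.11 to 0.86 over 20 pairs (median 0.38), and the highest of all 36 pairs was that of TAP1 with HLA-DMB (r = 0.86, Spearman rho = 0.79). TAP1 and TAP2, the subunits of 1 transporter, had r = 0.24. TAP2 was also apart from the class II members, at -0.08 with HLA-DRA and -0.11 with HLA-DOA.

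**Figure D4:**
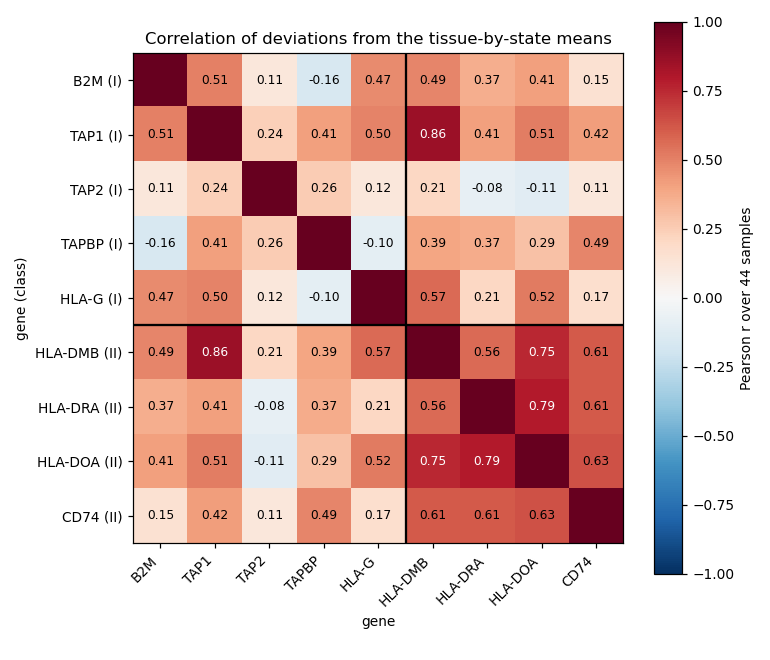
Pearson r between the members over 44 deviations from the tissue-by-state means (colour and printed value). Lines divide class I from class II genes, the class II block runs from 0.56 to 0.79, and TAP1 with HLA-DMB at 0.86 is the highest pair.

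The named genes outside the 9 whose deviations were most like those of TAP1 were ISG20 (r = 0.91), PSMB9 (0.91), ADPGK (0.90), IFI35 (0.89) and IFI44L (0.88). For HLA-DRA they were URP2 (0.81), NCKAP1L (0.80), C1QA (0.77), BoLA-DRB3 (0.75) and BIN2 (0.73), and for CD74 they included REXO1 (0.74), BoLA-DRB3 (0.70), NPLOC4 (0.70) and KLHDC7A (0.70). For B2M they were NEFH (0.77), SP140 (0.73), C1R (0.73), AGRN (0.72) and HSA9761 (0.72). BoLA-DRB3 was thus on the lists of both class II members, and no gene was on the lists of both class I members.

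The other class I heavy chain probes are described beside HLA-G. The array holds 8 of them, 5 passed the signal filter, and these were picked by the words of the description after the data were seen, so that they are given without a test. Their pregnancy differences ran from -0.34 to -0.04 log2 in caruncular tissue and from -0.58 to -0.10 in intercaruncular tissue, against 0.63 and 0.52 for HLA-G. Their spread between cows of 1 group was wide, with an SD from 0.99 to 2.37 log2 in caruncular tissue, where the 9 members had 0.20 to 0.53 and the median probe 0.27. An SD over 1 was found for 1.74% of all probes, for 0 of 9 members and for 4 of these 5.

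An SD over 1 was also seen in HLA-B (SD 2.11), BOLA-DQA2 (2.71), HLA-DRB5 (1.27) and BOLA-DQA1 (1.15), genes of the class I and class II lists. It was 0.28 in BOLA-DMA, 0.36 in BOLA-DOB and 0.28 in BOLA-DRB3. In HLA-B and BOLA-DQA2 the cows fell into a high and a low set, so no correlation is given. For BOLA-DQA2, 8 of 22 cows were more than 1 log2 below their group mean in caruncular tissue and in intercaruncular tissue, and they were the same 8 cows. For HLA-B, 7 cows were that low in caruncular and 6 in intercaruncular tissue, and 6 were low in both. In both genes all 22 cows lay on the same side of the mean in their 2 tissues. HLA-G had 18 of 22 cows on the same side and r = 0.86 between the tissues (0.79 without the 2 cows farthest from the median), and TAP1 had 16 of 22 and r = 0.65 (0.59). The match of each probe to the alleles of each cow was not tested.

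**Figure D5:**
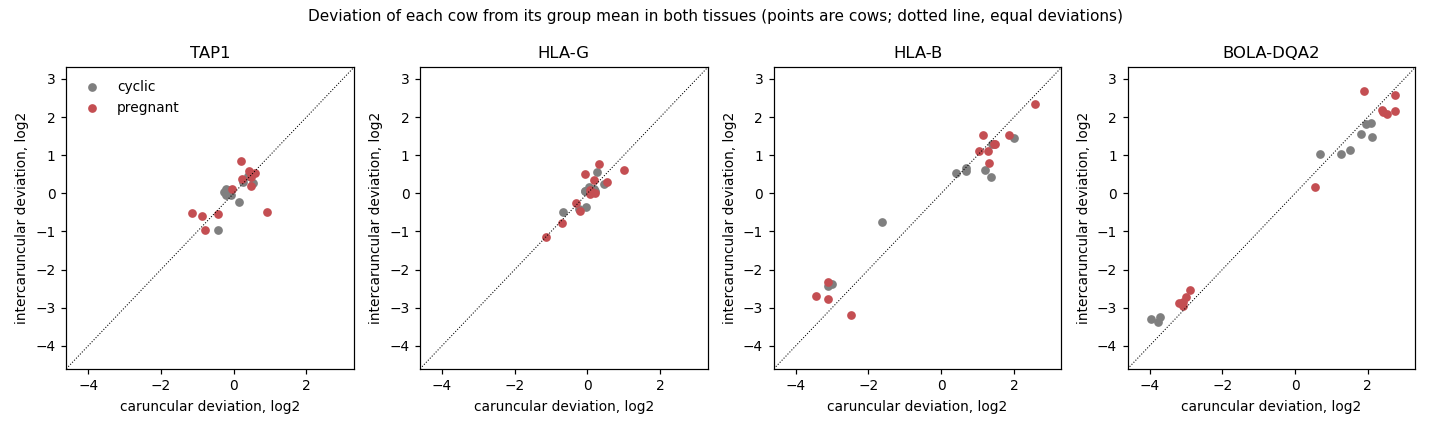
Deviation of each cow from the mean of its group in caruncular (x axis) and intercaruncular (y axis) tissue, in log2 units, for TAP1, HLA-G, HLA-B and BOLA-DQA2. Grey points are cyclic and red points pregnant cows, and the dotted line marks equal deviations. The low set of BOLA-DQA2, 8 cows, and that of HLA-B lie far below the rest in both tissues, while TAP1 and HLA-G form 1 cloud.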

How the data were processed

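RNA of 44 samples (22 cows, both tissues) was hybridised to 48 Agilent two-colour bovine arrays of 21475 probes, 4 caruncular samples a second time, with the sample in Cy5 and a pool of all samples in Cy3 on every array, without dye swap. Per the file headers, spots were read with Feature Extraction 9.5.3.1, which subtracted a local background and applied LOWESS dye normalisation. The deposited scanner files hold the log10 ratio of sample to pool and spot intensity per spot, and the authors' deposited matrix holds log2 ratios (17876 probes).

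The log10 ratios were converted to log2, spots with an outlier flag were left out, spots of a probe (2 for most) were averaged, each array was centred on its median and repeat arrays were averaged. Probes well above background with a signal of at least 80 in at least 22 of 44 samples were kept (14695). The groups came from the labels. Groups were compared with limma 3.58.1 in R 4.3.3, and p-values were adjusted after Benjamini-Hochberg over every probe that was kept. Pregnant and small-embryo samples against cyclic samples were called at an adjusted p under 0.05 and at least 1.5-fold, and other comparisons at an adjusted p under 0.05. The number of arrays limits the precision. The pregnancy fits alone were tested on simulated data, with independent noise. That simulation held no slide effects and no pairing of tissues by cow, so it does not bear on either.

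Values of both tissues of a cow are paired by the cow's number: the deviations of the tissues from their group means correlated in every cow (r from 0.11 to 0.87, median 0.61), and best with the same cow in 21 of 22. All 9 members are named. Of the pathway lists up to 4 called genes with the largest caruncular changes and genes of opposite sign in the 2 tissues are named, and for TAP1, B2M, HLA-DRA and CD74 the 5 named genes with the highest correlation of deviations. Members and lists were chosen with earlier results of these data known. Alternatives were normexp background correction (offset 50) followed by loess, leaving out the centring or the filter, a filter at 33 of 44 samples, the deposited matrix, single arrays of repeated samples, the methods' t-test, slide, scan date and cow as blocks, the other embryo label as covariate, and leaving out single cows. Chosen after seeing the data were the scan date as a block between tissues, arrays of 1 slide, no fold bound, and leaving out cows Pregnant_9790 and Non-Pregnant_9786. The study's list of changed probes was used for probe sequences and for names, and 3 member probes were found through its names alone. Of its rows, 517 were not used here. Some genes of these lists are not reported here by name.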

Additional observations from a re-analysis of the deposited data

Results flagged for a closer look

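Of 90 groups of 4 to 10 samples examined over the 9 members, 9 held a sample far from the others by Dixon's criterion, which chance gives in about 1 of 20 groups. Cow Pregnant_9790, pregnant with a large embryo, was far below the other large-embryo cows for TAP1 in intercaruncular tissue (-0.39), for HLA-G there (-0.30) and for HLA-DMB in caruncular (-0.17) and intercaruncular tissue (-0.38). Cow Pregnant_3956 was far above the other small-embryo cows in intercaruncular tissue for TAP1 (1.43) and HLA-DMB (1.27). Cow Non-Pregnant_9786 was far below the other cyclic cows for TAP1 in intercaruncular (-1.65) and TAPBP in caruncular tissue (-1.07). Cow Pregnant_9246 was far below the other small-embryo cows for TAP2 in intercaruncular tissue (-0.43). Cows Pregnant_9790 and Non-Pregnant_9786 are those whose tissues were all scanned on the third date.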

How the results depend on the processing

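Over 1287 member values under the alternatives, 1207 kept their direction and side of the threshold, 31 lost and 21 gained a call, and 28 changed sign. Leaving out the centring gave the same member values as the main setting, so its part of the values kept was no separate check. The pregnancy counts of 6 members in caruncular and 4 in intercaruncular tissue became 0 and 0 with fixed slide effects, a fit that rests on 1 slide per tissue. Over all probes, the calls went from 1467 to 58 in caruncular and from 1064 to 128 in intercaruncular tissue in that fit, to 652 in intercaruncular tissue with random slide effects, and to 3946 and 2981 with no fold bound. The sign of the pregnancy difference held for all 9 members in both tissues under every alternative run. In cyclic cows, the count of members differing between tissues went from 0 to 3 with a fixed replicate block per cow, to 2 with a random replicate block per cow and to 1 without cows Pregnant_9790 and Non-Pregnant_9786. In pregnant cows it went from 2 to 1 with normexp, with no filter, with the deposited matrix, with the first array alone and without these cows, to 0 with the scan date as a block and to 3 with a fixed replicate block per cow. The replicate block changed no other member call. Over all probes it moved the interaction from 3 to 150 (fixed) and 434 (random) calls, against 108 without these cows, 11 with no filter, 8 with the scan date and 6 with the repeat array alone. The count for small embryos went from 4 to 2 in caruncular and from 1 to 0 in intercaruncular tissue with random slide effects, and from 1 to 0 in intercaruncular tissue with no filter. Leaving out 1 cow gave 3 to 4 and 0 to 1. For embryo size it gave 0 to 0 members, and over all probes in intercaruncular tissue 34 (without cow Pregnant_932) to 1881 (without cow Pregnant_9790) calls against 541, with 319 for no filter, 1087 for fixed and 876 for random slide effects. The 7 fertility calls over all probes in intercaruncular tissue became 4 with no filter and 0 and 3 with fixed and random slide effects. The small-embryo calls over all probes went from 617 to 338 and from 229 to 121 with random slide effects, and without cow Pregnant_3956 to 337 and 124, and from 617 to 359 without cow Pregnant_932. The cause of these changes was not tested.

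Signs that changed were all of differences without a call in the main setting. Between tissues in cyclic cows they were B2M with normexp (-0.027), and with the scan date as a block B2M (-0.15), HLA-DMB (0.011), HLA-DOA (0.19) and CD74 (0.11). In pregnant cows they were HLA-G with the deposited matrix (-0.0063) and the first array (-0.0020), and with the scan date as a block TAP1 (0.32), TAP2 (-0.18), HLA-G (-0.15) and HLA-DMB (0.25). For embryo size they were TAPBP with fixed slide effects (-0.0067) and TAP2, which ran from -0.038 (without cow Pregnant_9246) to 0.17 in caruncular tissue, negative without Pregnant_9921 too (-0.020), and from -0.013 (without Pregnant_9246) to 0.15 in intercaruncular tissue. For fertility with fixed slide effects they were B2M (-0.30), HLA-G (-0.58) and HLA-DMB (-0.10) in caruncular and TAP1 (-0.51), HLA-G (-0.85), HLA-DMB (-0.67) and CD74 (-0.46) in intercaruncular tissue, where CD74 also changed with normexp (-0.018) and random slide effects (-0.083), and HLA-DOA with embryo size as a covariate (0.051). For small embryos in intercaruncular tissue they were CD74 with random slide effects (0.066) and without cow Pregnant_932 (0.039, the highest of a range from -0.19), and HLA-DOA without cow Pregnant_3956 (-0.062, the lowest of a range up to 0.21).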
